A study of Homo sapiens with 6 samples.

Results

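MicroRNA genes were examined on 6 Affymetrix gene arrays of SNU-398 cells, a human hepatocellular carcinoma (HCC) line. Cells given an shRNA against SALL4 (n = 3) were set against cells given a scrambled shRNA (n = 3). SALL4 is a zinc finger transcription factor of stem cells and fetal liver. All 6 samples came from this 1 line and are labelled as biological replicates; the labels name neither the shRNA sequences nor the time after treatment. A microRNA gene was any gene whose symbol starts with MIR and a digit or with MIRLET7, and 189 of the 18404 genes that the array names through a probe set of their own met this rule. Each of the 189 had 1 probe set. They comprised 173 microRNA genes proper and 16 host transcripts, long RNAs whose symbols end in HG and that contain a microRNA.

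A microRNA gene is transcribed into a long primary transcript. DROSHA with DGCR8 cuts a hairpin from it in the nucleus, DICER1 trims the hairpin to a short duplex, and 1 strand of it, the mature microRNA, is loaded into an Argonaute protein. The mature strand guides the silencing of mRNAs, mainly through its seed, bases 2 to 8. Many microRNAs lie in introns of protein coding genes and share the host's transcript. The labelled material was total RNA amplified as for mRNA, so a probe set here reads a precursor or host transcript and is not a measure of the mature microRNA. The probes' positions are not in the files. LIN28B, an oncofetal RNA-binding protein, blocks the maturation of let-7 precursors, and any part of it in the let-7 values was not tested.

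The 3 members that share the seed GCAGCAU carry the main result and are printed first. In the mature sequences below, taken from RefSeq (GRCh38.p14), the capitals mark the seed.
hsa-miR-103a-3p: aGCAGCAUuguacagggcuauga
hsa-miR-107: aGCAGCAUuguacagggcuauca
Counted from 1 at the 5′ end, the only difference of miR-107 from miR-103a-3p is G22C. In their hairpins the capitals mark the mature 3p sequence.
MIR103A2 hairpin: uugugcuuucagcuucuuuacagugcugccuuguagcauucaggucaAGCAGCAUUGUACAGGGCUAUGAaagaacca
MIR103A1 hairpin: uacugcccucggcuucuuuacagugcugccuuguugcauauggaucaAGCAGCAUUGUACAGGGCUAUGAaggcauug
MIR107 hairpin: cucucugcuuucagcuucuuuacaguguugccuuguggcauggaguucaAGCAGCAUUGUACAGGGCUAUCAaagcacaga
MIR103A2 lies at chr20:3917494-3917571 on the plus strand within the gene PANK2. MIR103A1 lies at chr5:168560896-168560973 on the minus strand within PANK3, and MIR107 at chr10:89592747-89592827 on the minus strand within PANK1. The hosts encode pantothenate kinases, which start coenzyme A synthesis. MIR103A2 and MIR103A1 give an identical mature 3p sequence, and their hairpins match at 63 of 78 bases (80.8%).

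The shRNA target was checked first. SALL4 intensities were 120.65, 118.73 and 117.33 in SALL4 shRNA cells, against 283.49, 264.25 and 335.43 in scrambled cells. The means were 119 ± 1.67 in SALL4 shRNA cells and 294 ± 36.8 in scrambled cells (SD, n = 3 each), and SALL4 fell by 1.30 ± 0.18 on the log2 scale (SE; limma adjusted p = 0.0108). An exact two-sided permutation test of 3 against 3 arrays cannot go under 0.1 and gave that value for SALL4. Of the line's marker genes, ALB, the main hepatocyte secretory product, averaged 12.1 in SALL4 shRNA cells and 11.2 in scrambled cells, near the lowest deposited value of 10. The fetal liver product AFP averaged 13.5 in SALL4 shRNA cells and 15.0 in scrambled cells. Other oncofetal markers lay well above 10. GPC3 averaged 144 in SALL4 shRNA cells and 155 in scrambled cells, and DLK1 50.9 and 56.7. Of 8 hepatocyte genes, 2 were bright enough to be tested, APOA1 and SERPINA1, at log2 differences of -0.25 and -0.04. All 4 cholangiocyte markers were tested, among them EPCAM at 894 in SALL4 shRNA cells and 963 in scrambled cells. None of these tested markers was called. The blood markers PTPRC and LYZ were at 10 on every array. Summed intensities of the marker lists ran from 80.5 to 106 in SALL4 shRNA cells and 84.9 to 92.6 in scrambled cells for endothelium (4 genes), and from 775 to 1126 in SALL4 shRNA cells and 1023 to 1049 in scrambled cells for fibroblasts and stellate cells (5 genes). That sum is mostly the matrix gene LUM, which differed by -0.08. Of the 5, DCN was called lower, at 83.4 in SALL4 shRNA cells and 195 in scrambled cells, a difference of -1.25 (limma adjusted p = 0.0218). COL1A2, COL1A1 and PDGFRB had differences above 0 that did not pass the test, and the median over the list was 0.32. The second SALL4 shRNA array and the third scrambled array stood slightly apart, correlating with their own groups at 0.954 at most and 0.960 at most, against 0.963 between the other SALL4 shRNA arrays and 0.966 between the other scrambled arrays.

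Intensity here is the deposited linear array signal with a floor of 10, and probes of different genes bind unequally, so levels of different genes are not compared as amounts of RNA. Of the 189 microRNA genes, 53 (28.0%) were at the floor on all 6 arrays, 38 on some arrays and 98 on none. Over all 18404 genes, 552 (3.0%) were at the floor on all arrays. The 192 genes of small nucleolar and Cajal body RNAs, also short and structured, had 34 (17.7%) there. No host transcript was at the floor on all arrays. The number of microRNA genes at the floor was 69, 73 and 74 on the SALL4 shRNA arrays, against 73, 72 and 68 on the scrambled arrays, so the groups overlapped. None was at the floor on every array of 1 group and on none of the other.

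The test was limited to genes with a mean log2 intensity over all 6 arrays of at least 5, an intensity of 32. It held 13325 genes (72.4%), among them 51 microRNA genes (27.0%), of which 41 were microRNA genes proper and 10 host transcripts. The log2 difference, SALL4 shRNA minus scrambled, was above 0 in 37 of the 51 and below 0 in 14. Its median was 0.15 over the 51 microRNA genes and 0.02 over all 13325 genes. The 10 host transcripts split evenly, with 5 above 0, 5 below and a median of 0.04. The lean to values above 0 in the 51 depended on the filter: over the 136 microRNA genes off the floor on at least 1 array, 75 differences were above 0 and 61 below, with a median of 0.02. The 103 small nucleolar and Cajal body RNA genes in the test had a median of -0.23.

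Of the 51, 1 passed the test, MIR103A2, which rose; 1.65% of all genes tested were called, and 0.6% were called higher and 1.05% lower. An unadjusted p under 0.05 was found for 7 of the 51, against 16.8% of all genes tested. In 7 of the 51 the 3 SALL4 shRNA values all lay above the 3 scrambled values, while 11.5% of all genes tested did so. In none did they all lie below, against 10.8% of all genes tested. The share of calls is near the background, and separated groups taken in both directions are no more frequent than the 22.2% of all genes tested. The lean was present on each array: the median deviation of the 51 from each gene's mean was 0.10, 0.06 and 0.04 on the SALL4 shRNA arrays, against -0.03, -0.10 and -0.08 on the scrambled arrays. Over all genes it was 0.04, -0.02 and 0.01 on the SALL4 shRNA arrays, against -0.01, 0.01 and -0.02 on the scrambled arrays.

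**Figure D1:**
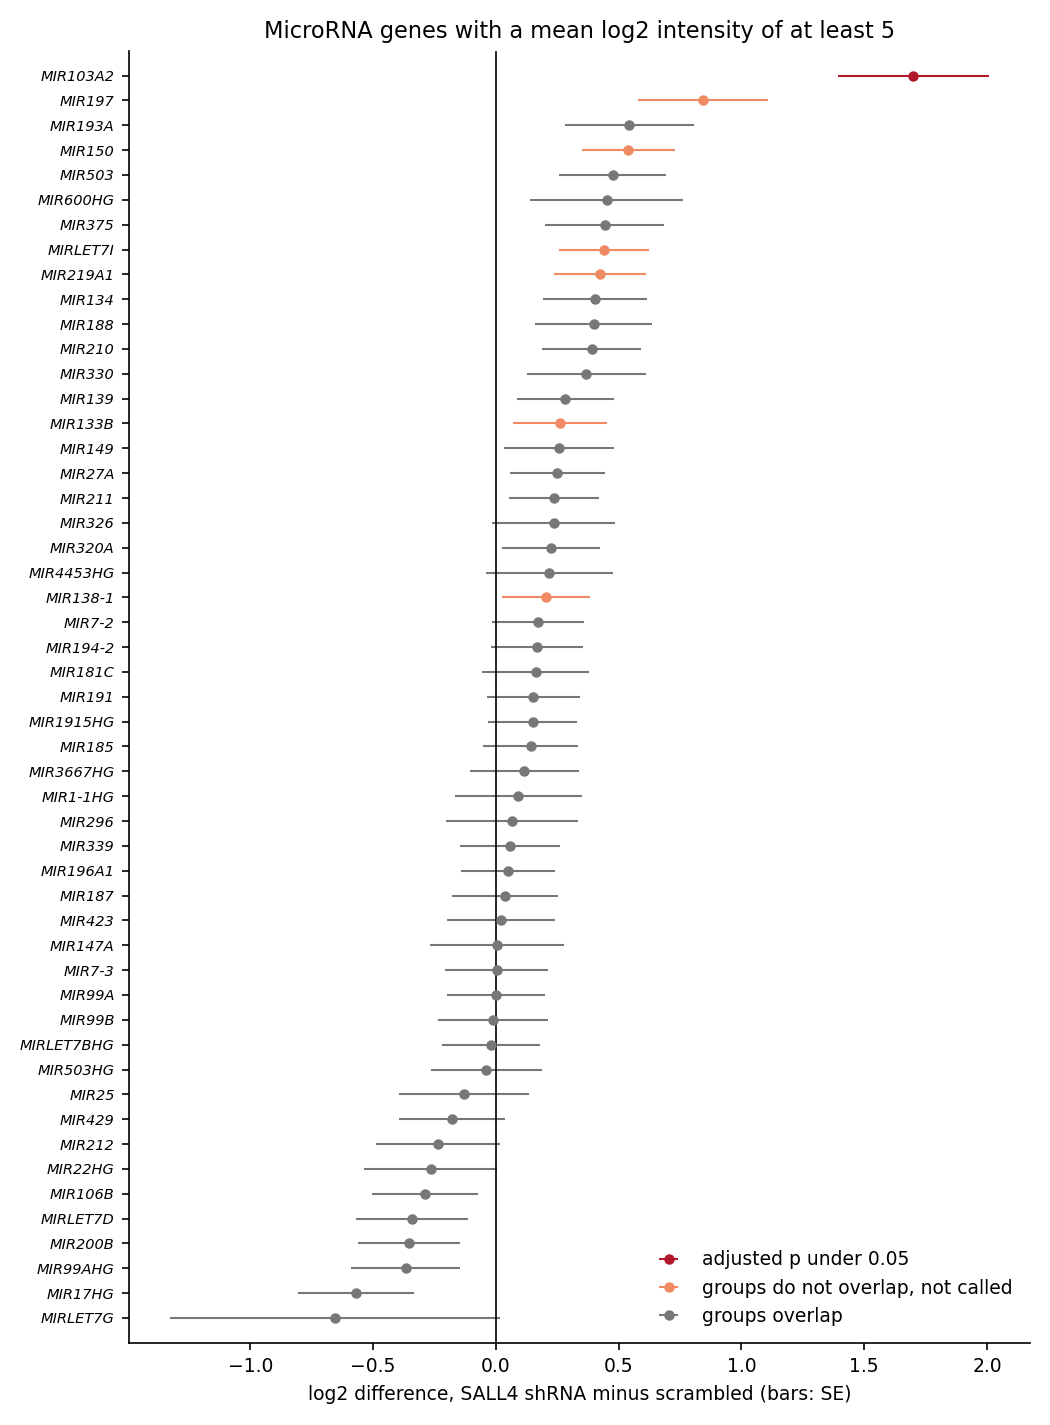
Log2 difference, SALL4 shRNA minus scrambled shRNA, of the 51 microRNA genes tested (points; bars are the SE of the limma fit, n = 3 arrays each). MIR103A2 at 1.70 stands apart and is the 1 gene with an adjusted p under 0.05; the other 6 whose groups do not overlap lie between 0.20 and 0.84.

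MIR103A2 had intensities of 107.51, 110.52 and 265.14 in SALL4 shRNA cells, against 50.86, 46.86 and 38.55 in scrambled cells. Every SALL4 shRNA array was above every scrambled array, and the third SALL4 shRNA array was the highest of the 6. The means were 161 ± 90.2 in SALL4 shRNA cells and 45.4 ± 6.28 in scrambled cells (SD, n = 3 each). The log2 difference was 1.70 ± 0.31 (SE; limma adjusted p = 0.0239; exact permutation p = 0.1, the smallest possible). Without the third SALL4 shRNA array the difference was 1.27 (limma adjusted p = 0.0313). The call ended when any 1 scrambled array was left out (limma adjusted p = 0.0610 to 0.0787), when the SALL4 shRNA and scrambled arrays that stood apart were left out together (1.79; 0.0918), when all probe sets were tested singly (0.102), with the replicate number as a block (0.0623), and when faint genes were tested too (0.0796 with genes off the floor on at least 1 array, 0.167 with no filter).

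The other seed relatives did not show this difference. MIR103A1 was faint, at 13.81, 12.65 and 12.30 in SALL4 shRNA cells, against 15.28, 12.68 and 13.74 in scrambled cells, a difference of -0.10. MIR107 had 33.90, 33.31 and 39.13 in SALL4 shRNA cells, against 39.25, 22.31 and 26.38 in scrambled cells, a difference of 0.31 with overlapping groups. Both lay under the filter; in a fit that left out only genes at the floor on all arrays, their limma adjusted p was 0.829 for MIR103A1 and 0.577 for MIR107. The difference between MIR103A2 and its relatives was not itself tested.

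The hosts were set beside them. PANK2, the host of MIR103A2, had 236.80, 290.30 and 306.60 in SALL4 shRNA cells, against 247.59, 166.51 and 269.86 in scrambled cells. These groups overlap, and the difference of 0.31 ± 0.22 did not pass the test (SE; limma adjusted p = 0.526). PANK3 had 383.69, 450.47 and 346.22 in SALL4 shRNA cells, against 557.20, 582.47 and 516.26 in scrambled cells; the groups do not overlap, at -0.50 ± 0.19 (SE; limma adjusted p = 0.201). PANK1 differed by -0.13 ± 0.20 (SE; limma adjusted p = 0.799). The difference between MIR103A2 and PANK2, or between the other microRNA genes and their hosts, was not itself tested. RefSeq also places MIR103B2 and MIR103B1 antisense to MIR103A2 and MIR103A1. The files do not say which strand a probe set reads, so signal from MIR103A2 and from MIR103B2 cannot be told apart. Without probe positions, signal shared between the alike MIR103A2 and MIR103A1 sequences could not be tested either.

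**Figure D2:**
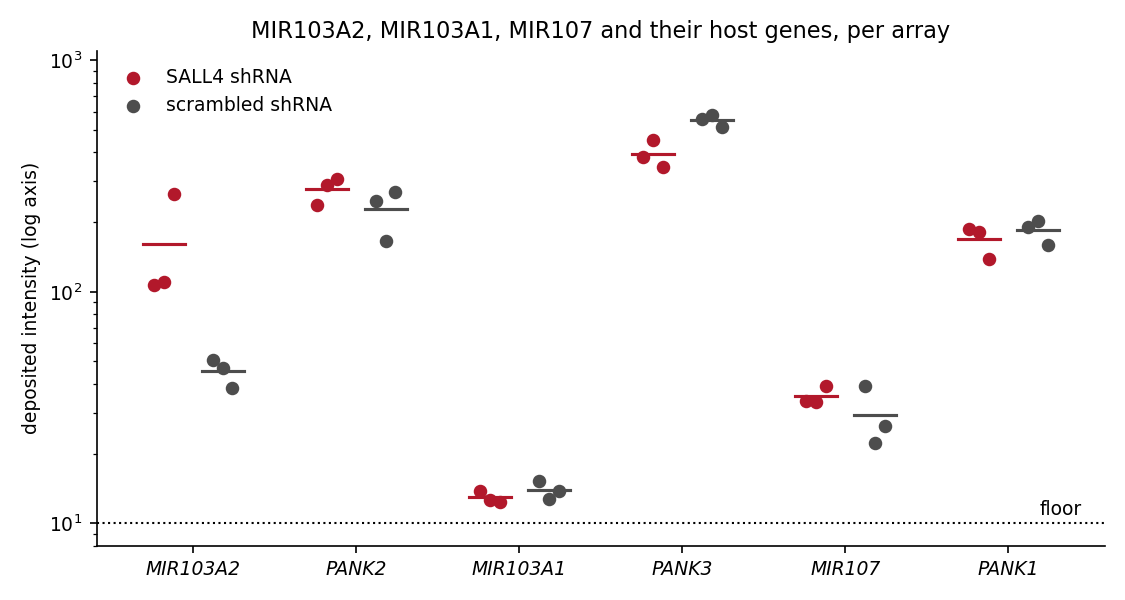
Deposited intensity (log axis) of MIR103A2, MIR103A1 and MIR107, each followed by its host gene, on each array; points are arrays, short lines are group means, SALL4 shRNA left of scrambled, and the dotted line is the floor of 10. The 3 SALL4 shRNA points of MIR103A2 lie at 107.51 or above and its scrambled points at 50.86 or below, while MIR103A1 stays near the floor in both groups.

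The 8 brightest microRNA genes by mean log2 intensity were MIR326, MIR339, MIR375, MIR210, MIR139, MIR185, MIR197 and MIR320A. Mature sequences of 7 of them show that no seed (capitals) is shared among these 7.
hsa-miR-326: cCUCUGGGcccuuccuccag
hsa-miR-339-5p: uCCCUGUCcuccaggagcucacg
hsa-miR-375-3p: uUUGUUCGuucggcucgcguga
hsa-miR-210-3p: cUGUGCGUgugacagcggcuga
hsa-miR-139-5p: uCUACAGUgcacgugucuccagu
hsa-miR-185-5p: uGGAGAGAaaggcaguuccuga
hsa-miR-197-3p: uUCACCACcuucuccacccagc
MIR326 had 307.43, 505.44 and 279.39 in SALL4 shRNA cells, against 341.22, 232.37 and 336.08 in scrambled cells, so the second SALL4 shRNA array alone was above all the scrambled ones. MIR375, known from pancreatic islets, had 191.89, 203.82 and 179.63 in SALL4 shRNA cells, against 146.70, 97.22 and 196.26 in scrambled cells. MIR210, a target of hypoxia-inducible factors, had 155.10, 177.42 and 211.45 in SALL4 shRNA cells, against 127.07, 122.74 and 165.79 in scrambled cells. The groups of these 3 overlap, at differences of 0.23, 0.44 ± 0.24 and 0.39 ± 0.20 (SE for MIR375 and MIR210; limma adjusted p = 0.696, 0.389 and 0.360). MIR339, MIR139, MIR185 and MIR320A had overlapping groups too and differences of 0.06 to 0.28.

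MIR197 was the 1 of the 8 whose groups did not overlap. It had 167.36, 133.78 and 222.97 in SALL4 shRNA cells, against 129.15, 67.01 and 99.72 in scrambled cells, a difference of 0.84 ± 0.26 that did not pass the test (SE; limma adjusted p = 0.125). Its host GNAI3, a G protein subunit, differed by 0.33 ± 0.21 (SE). MIR150, known from lymphocytes, had 78.35, 71.80 and 83.46 in SALL4 shRNA cells, against 46.73, 52.17 and 62.82 in scrambled cells (0.54 ± 0.19, SE; limma adjusted p = 0.172). The 5 blood markers summed to 84.3 to 93.6 on the SALL4 shRNA arrays and 79.3 to 88.9 on the scrambled arrays, with PTPRC and LYZ at the floor. The T lymphocyte marker CD3E lay under the filter, at 22.77, 21.50 and 26.13 in SALL4 shRNA cells, against 21.15, 18.08 and 17.64 in scrambled cells. Its groups were separated, at 0.31 (limma adjusted p = 0.444 in the fit that left out only genes at the floor on all arrays). Of the other blood markers off the floor, CD14 differed by 0.22 and HBB ran the other way at -0.15, both with overlapping groups. Any part of CD3E in the MIR150 values was not tested. MIR219A1 had 50.31, 45.80 and 56.96 in SALL4 shRNA cells, against 40.87, 39.81 and 33.39 in scrambled cells (0.42 ± 0.19, SE; limma adjusted p = 0.279). MIR133B and MIR138-1, picked out after their values were seen, had separated groups too, at 0.26 and 0.20, as did MIRLET7I, given with its family.

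Further microRNA genes among the 10 highest differences had groups that overlap. MIR193A had 48.72, 64.57 and 41.52 in SALL4 shRNA cells, against 27.50, 29.37 and 52.21 in scrambled cells, a difference of 0.54. MIR503 had 48.68, 67.81 and 51.99 in SALL4 shRNA cells, against 50.00, 39.28 and 32.53 in scrambled cells, at 0.48 ± 0.22 (SE; limma adjusted p = 0.296). Its host transcript MIR503HG differed by -0.04 ± 0.23 (SE; limma adjusted p = 0.956). The difference between MIR503 and its host transcript was not itself tested. MIR600HG, at 71.38, 25.54 and 39.31 in SALL4 shRNA cells, against 26.59, 37.46 and 28.20 in scrambled cells, differed by 0.45, and by 0.06 to 0.80 when 1 array was left out. MIR134 differed by 0.40.

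The let-7 family, known for restraining proliferation and for repressing oncofetal mRNAs, had 10 measured genes, all with the seed GAGGUAG. Of the 10, 2 were at the floor on all arrays and 3 were in the test, 1 above 0 and 2 below, with none called. Their mature forms and those of 2 fainter genes of the cluster on chromosome 9, with the seed in capitals, show how close they are.
hsa-let-7i-5p: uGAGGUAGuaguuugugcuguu
hsa-let-7d-5p: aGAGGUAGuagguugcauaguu
hsa-let-7g-5p: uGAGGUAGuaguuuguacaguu
hsa-let-7a-5p: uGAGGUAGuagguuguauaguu
hsa-let-7f-5p: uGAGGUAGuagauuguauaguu
MIRLET7I had 88.91, 88.87 and 79.21 in SALL4 shRNA cells, against 71.89, 56.08 and 62.10 in scrambled cells; the groups do not overlap, at 0.44 ± 0.18 (SE; limma adjusted p = 0.254). MIRLET7D had 35.34, 43.76 and 49.96 in SALL4 shRNA cells, against 67.83, 57.23 and 40.45 in scrambled cells, at -0.34 ± 0.23 (SE; limma adjusted p = 0.490). MIRLET7G was the most scattered of the 51, with 34.81, 41.05 and 19.14 in SALL4 shRNA cells, against 59.67, 151.70 and 11.81 in scrambled cells. Its difference of -0.66 ± 0.67 was the lowest of the 51 (SE; limma adjusted p = 0.677), and it was 0.18 or -1.66 at the extremes of leaving out 1 array. LIN28B averaged 501 in SALL4 shRNA cells and 376 in scrambled cells, at 0.40 ± 0.21 (SE; limma adjusted p = 0.355).

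The 17-92 cluster and its paralogs, oncogenic in many tumours, had 7 measured genes, 2 of them at the floor on all arrays. The 3 in the test were all below 0, with a median of -0.29 and none called. MIR17HG, the primary transcript of the 17-92 cluster, had 43.21, 28.34 and 43.65 in SALL4 shRNA cells, against 67.71, 59.46 and 43.36 in scrambled cells. Only the third array of each group crossed, and the difference was -0.57 ± 0.24 (SE; limma adjusted p = 0.250). MIR25 had 94.22, 79.75 and 77.20 in SALL4 shRNA cells, against 68.67, 75.66 and 146.33 in scrambled cells, and its sign rests on the third scrambled array, without which the difference was 0.21. MIR106B and MIR25, neighbours in an intron of the replication gene MCM7, differed by -0.29 ± 0.22 and -0.13 ± 0.27 (SE), and MCM7 itself by 0.08 ± 0.21 (SE). MIR93, in the same intron, was under the filter, at 28.50, 25.24 and 25.84 in SALL4 shRNA cells, against 40.27, 32.41 and 37.84 in scrambled cells. Its groups do not overlap, with a difference of -0.47 (limma adjusted p = 0.238 in the fit with faint genes).

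**Figure D3:**
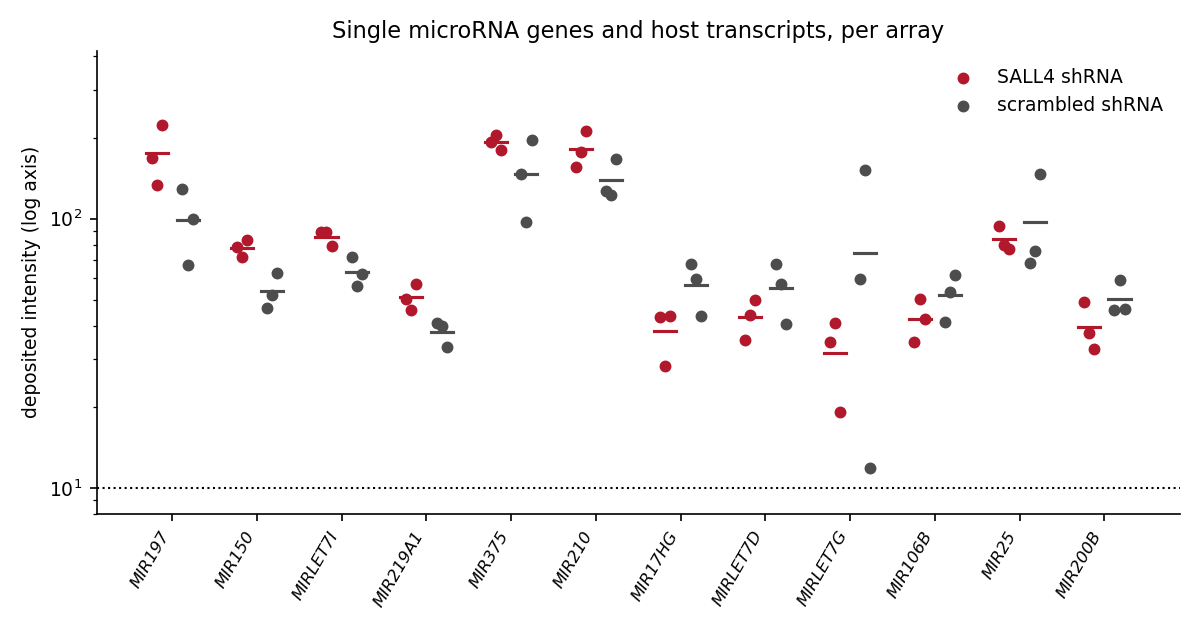
Deposited intensity (log axis) of 12 named microRNA genes and host transcripts on each array; points are arrays, short lines are group means, SALL4 shRNA left of scrambled, and the dotted line is the floor of 10. MIR197, MIR150, MIRLET7I and MIR219A1 have separated groups, and the scrambled values of MIRLET7G run between 11.81 and 151.70.

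Families tied to stem cells, liver and this cancer were mostly faint. MIR302A and MIR302B, of the pluripotency cluster, were at the floor on all 6 arrays. So was MIR122, the most abundant microRNA of hepatocytes, and the liver group had 3 of 5 genes there. In that group MIR194-2 was tested, at 0.17 ± 0.19 (SE; limma adjusted p = 0.712). Of 12 genes known from HCC, 4 were at the floor throughout and 1, MIR22HG, was in the test, at -0.27 ± 0.27 (SE; limma adjusted p = 0.676). MIR21, a widely overexpressed oncogenic microRNA, lay under the filter with 34.80, 23.79 and 61.53 in SALL4 shRNA cells, against 27.40, 18.34 and 21.49 in scrambled cells. Its groups overlap, with a difference of 0.75 (limma adjusted p = 0.335 in the fit with faint genes).

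The 200 family, which maintains epithelial identity, had 5 genes measured and 2 tested, MIR200B at -0.35 ± 0.21 and MIR429 at -0.18 ± 0.22 (SE; limma adjusted p = 0.427 and 0.734). Both sit in 1 cluster on chromosome 1 and share the seed AAUACUG. The imprinted group at 14q32 had 16 genes, of which 8 were at the floor throughout and 1, MIR134, was tested. MIR99AHG at -0.37 ± 0.22 and MIR212 at -0.24 ± 0.25 (SE; limma adjusted p = 0.438 and 0.693) complete the lowest 10 of the 51. All 10 lowest had overlapping groups. MIR34A and MIR34B, effectors of p53, and MIR516B1 and MIR516B2, of the placental group on chromosome 19, were measured but under the filter. The MIR548 and MIR1302 families and the Xq27 group had 0 genes measured.

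Of the 85 genes under the filter but off the floor on at least 1 array, 8 had separated groups, against 12.1% of all such genes. These 8 are named after their values were seen. MIR125A, MIR218-1, MIR23A, MIR9-1 and MIRLET7A1 were higher in every SALL4 shRNA array, and MIR181A2, MIR93 and MIRLET7A2 lower. MIR181A2 had 11.82, 14.74 and 13.84 in SALL4 shRNA cells, against 25.48, 17.79 and 23.46 in scrambled cells, a difference of -0.71. Its limma adjusted p of 0.137 in the fit with faint genes was the lowest of the 85, and that fit called no microRNA gene and 0.224% of all genes.

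Host genes were examined for all microRNA genes that RefSeq places within another gene on the same strand. Of 108 such microRNA genes, 60 had a host on the array, and in 18 pairs, with 17 hosts, both partners were tested. The difference had the same sign in 10 of the 18 pairs. Across the pairs Pearson's r was 0.29 and Spearman's rho 0.29, and without MIR103A2 they were 0.15 and 0.17 over 17 pairs; the pairs share arrays and in part a transcript, so these values are descriptive. Of the 15 microRNA genes at the floor on all arrays that had a measured host, 13 had a host that passed the filter. Most hosts of the other microRNA genes passed it too, as did 72.4% of all genes.

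The array signal of microRNA genes went with the base composition of the hairpin. RefSeq gave a hairpin for 155 of the 173 microRNA genes proper. The hairpins below, with G and C in capitals, show the range: MIR212 and MIR339 were in the test, and MIR29A and MIR376C were at the floor on all arrays.
MIR212 hairpin: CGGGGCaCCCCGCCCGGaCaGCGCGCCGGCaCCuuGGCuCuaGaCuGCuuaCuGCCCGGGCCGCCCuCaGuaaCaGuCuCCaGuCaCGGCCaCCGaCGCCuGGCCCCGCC
MIR339 hairpin: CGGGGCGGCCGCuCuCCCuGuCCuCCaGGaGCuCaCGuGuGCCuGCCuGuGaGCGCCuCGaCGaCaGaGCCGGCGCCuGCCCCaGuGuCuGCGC
MIR29A hairpin: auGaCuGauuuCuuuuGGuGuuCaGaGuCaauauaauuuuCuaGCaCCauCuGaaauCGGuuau
MIR376C hairpin: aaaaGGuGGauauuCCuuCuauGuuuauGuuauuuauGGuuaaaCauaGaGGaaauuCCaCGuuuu
Of 53 genes with a G+C under 45%, 31 (58.5%) were at the floor on all arrays and 3 were in the test. Of 48 genes with a G+C of 55% or more, 2 (4.17%) were at the floor throughout and 28 were in the test. Between these, 16 of 54 genes (29.6%) were at the floor throughout. Across the 155 genes, mean log2 intensity and G+C had a Pearson's r of 0.71 and a Spearman's rho of 0.69; the genes share arrays, so no p is given, and what this owes to the probes and what to the RNA was not tested.

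The difference between the groups followed G+C less. Over the 39 tested genes with a hairpin, r was 0.00 and rho 0.17, and without MIR103A2 they were 0.27 and 0.26 over 38. For mean log2 intensity over the same 39 genes they were 0.53 and 0.54. Over the 106 genes with a hairpin off the floor on at least 1 array, r and rho were 0.19 and 0.29 for the difference, and 0.68 and 0.65 for mean log2 intensity. The median difference was 0.24 in the 28 tested genes with a G+C of 55% or more, of which 22 were above 0, and 0.01 in the 8 between 45% and 55%. The 3 tested genes with a G+C under 45% were all above 0, with a median of 0.05. MIR103A2 is 1 of these, and its hairpin has a G+C of 44.9%.

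**Figure D4:**
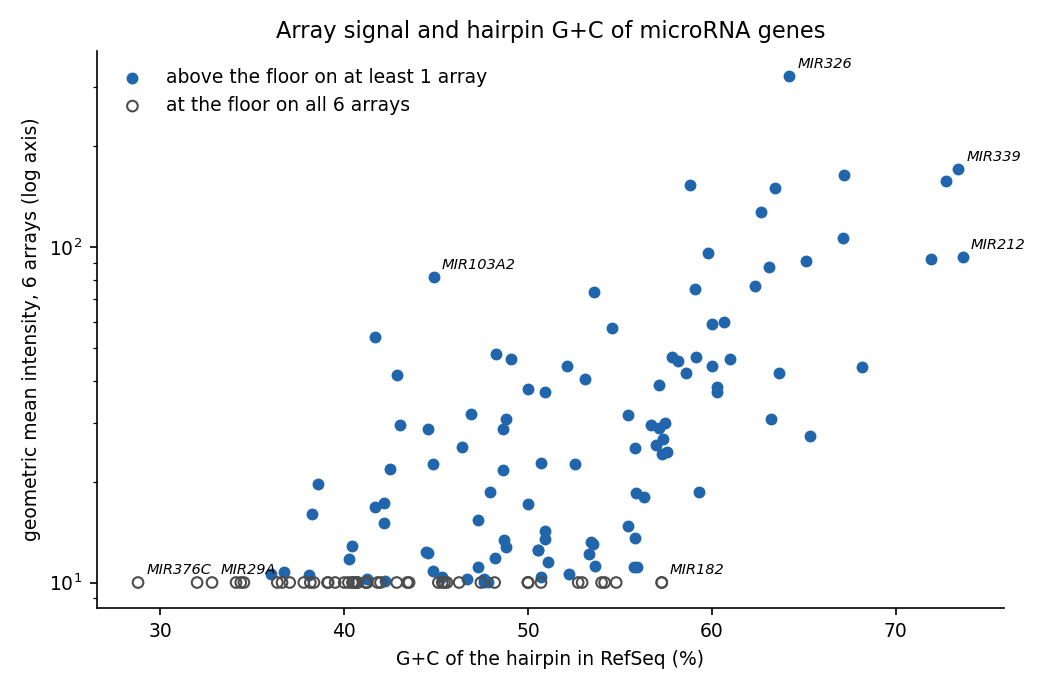
Geometric mean intensity over the 6 arrays (log axis) against the G+C of the RefSeq hairpin for 155 microRNA genes; filled points were above the floor of 10 on at least 1 array and open points were at it on all 6. Genes at the floor throughout have a median G+C of 41.2%, and the 20 brightest one of 62.9%.

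Genomic neighbours were not always read alike. With neighbours taken as genes on 1 strand no more than 10 kb apart, 65 members formed 26 clusters, and 12 clusters held both genes at the floor on all arrays and genes above it. In the cluster of MIRLET7A1, MIRLET7F1 and MIRLET7D, MIRLET7F1 was at the floor throughout while MIRLET7D was in the test. Such neighbours can be cut from 1 primary transcript, and whether probe or transcript sets their floor status was not tested.

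The processing machinery was read as 25 genes, 24 of them tested, with 13 above 0, 11 below 0 and none called at an adjusted p under 0.05 (5 had an unadjusted p under 0.05, against 16.8% of all genes tested). DROSHA averaged 657 in SALL4 shRNA cells and 782 in scrambled cells, at -0.25 ± 0.19 (SE; limma adjusted p = 0.552). DICER1 averaged 1328 in SALL4 shRNA cells and 1773 in scrambled cells, at -0.41 ± 0.18 (SE; limma adjusted p = 0.268), with groups that do not overlap. The Argonaute gene AGO2 had 316.12, 433.03 and 304.76 in SALL4 shRNA cells, against 637.74, 554.58 and 673.72 in scrambled cells, at -0.84 ± 0.20 (SE; limma adjusted p = 0.0585). PRKRA, a DICER1 partner, differed by -0.73 ± 0.20 and AGO4 by 0.47 ± 0.17 (SE; limma adjusted p = 0.0806 and 0.192). The groups of AGO2, PRKRA and AGO4 do not overlap, and AGO4 ran the other way. Separated groups were also found for DGCR8 at -0.33 and TNRC6A at -0.47, both lower, and for SRSF3 at 0.24. Over all genes tested, 22.2% had separated groups. The Argonaute genes AGO1 at 0.03 and AGO3 at -0.04 had overlapping groups. Apart from DROSHA and DICER1, the genes of this list named in this paragraph were picked after their values were seen.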

How the data were processed

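The deposited values are linear intensity values per probe set; RMA is named in the submitters' processing notes, and the file's values have a floor of 10. All 6 sample columns were used and 0 columns were left out. Of 32319 probe sets, 19158 had 1 gene symbol in the platform annotation, 1388 several and 11773 none listed; 32 probe sets with a microRNA symbol among several were not used. For genes with several probe sets, the one with the highest mean was kept. Array medians were 47.85 to 51.69; precision is limited by having 3 arrays a group, and p-values measure the spread between these samples.

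The log2 intensity was tested with limma 3.58.1 (lmFit and eBayes, two-sided; R 4.3.3), with Benjamini-Hochberg adjustment over all 13325 genes with a mean log2 of at least 5 and a threshold of 0.05. On simulated data the fit called 44% of the genes shifted by 1 on the log2 scale and 81% of those shifted by 2. Of its 126 calls, 1 was false. The simulated noise was drawn from each gene's own measured spread and 200 genes were shifted, so these shares need not hold for the real data. Differences of the size seen here may still go uncalled. SE is limma's moderated standard error. Python 3.11.15 made the summaries. The genes named were SALL4, every called microRNA gene, the 8 brightest, the 10 highest and 10 lowest differences, up to 4 tested members of each fixed family, their hosts, LIN28B, DROSHA and DICER1; cell type markers are named as checks, and others are said to be picked after their values were seen or are family members under the filter. The members and lists were chosen with earlier results of these data known. In all, 18 alternatives were run.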

Additional observations from a re-analysis of the deposited data

How the results depend on the processing

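Settings are compared with 220 genes and 1 microRNA gene called. With only genes at the floor on all arrays left out, 40 genes and 0 microRNA genes were called, the median difference of the microRNA genes was 0.022, and MIR103A2 kept 1.70 (limma adjusted p = 0.0796). With no filter, 0 genes and 0 microRNA genes were called, the median was 0, MIR103A2 was at 1.70 (0.167) and SALL4 at -1.30 (0.0946). With all probe sets tested singly, 7 and 0 were called, MIR103A2 was at 1.70 (0.102) and SALL4 at -1.30 (0.0544). Without both arrays that stood apart, 20 and 0 were called, MIR103A2 was at 1.79 (0.0918), SALL4 at -1.20 (0.0685) and MIR25 turned to 0.24. A mean log2 of at least 6 called 341 genes, limma's trend and robust options 486, and 16 added before the log2 433. With the replicate number as a block, 37 genes and 0 microRNA genes were called and MIR103A2 was at 1.70 (0.0623). Deviations from the group means correlated at 0.000372, -0.0854 and -0.0412 between same-numbered samples, and at -0.062 to 0.093 between the others. No deviation shared by number was seen, but these values cannot show whether the samples were prepared in pairs. Leaving out 1 array gave 37 to 97 genes and 0 to 1 microRNA genes called, MIR103A2 at 1.27 to 1.92, MIR326 at -0.027 to 0.40, MIR339 at -0.080 to 0.17, MIR22HG at -0.49 to 0.0050, MIRLET7G at -1.66 to 0.18 MIR600HG at 0.06 to 0.80 and MIR25 at -0.34 to 0.21. The cause of these changes was not tested, beyond the number of genes or arrays each setting holds. For the named genes other than SALL4 and MIR103A2, none of which was called, 449 values under alternatives kept their direction and side of the threshold and 7 changed sign. Limits: each group has 3 arrays, 138 of the 189 microRNA genes lie under the filter, a probe set reads a precursor or host, and signal near the floor of 10 understates any difference.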

Other observations

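Other microRNA genes in the test that share a seed were read side by side. MIR326 and MIR330 share the seed CUCUGGG and had differences of 0.23 and 0.37 (limma adjusted p = 0.696 and 0.481). MIR99A and MIR99B share the seed ACCCGUA and lay close to 0, at averages of 40.8 in SALL4 shRNA cells and 40.8 in scrambled cells for MIR99A, and of 107 in SALL4 shRNA cells and 109 in scrambled cells for MIR99B. The seed ACAUUCA had 5 measured members. MIR181C, in the test at 0.16, and MIR181A2, under the filter at -0.71, differ in sign, and the difference between them was not tested. Also under the filter, MIR181B2 was at 0.20 and MIR181B1 at -0.06, both with overlapping groups, and MIR181A1 was at the floor on all arrays. Among 32 probe sets that carry a microRNA symbol together with other symbols, 11 were at the floor on all 6 arrays.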
